A study of Mus musculus with 4 samples.

Results

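RAB GTPases are the small GTP-binding proteins that give membranes their traffic identity. The genes described here are those whose symbol is Rab followed by a number and an optional letter, without effectors or exchange factors, and each gene was read from its probe set with the highest mean log2 signal over the 4 arrays. By that rule 59 RAB genes were found among 18193 genes with a probe set of 1 symbol, through 132 probe sets, of which 21 genes had only 1. G-MDSC, the granulocytic myeloid-derived suppressor cells, were set against neutrophils, with 2 samples of each on Affymetrix expression arrays, 1 array per sample. All mice were female C57BL/6, with no age in the labels and no engineered allele named. G-MDSC (CD11b+ Ly6G+ Ly6C low) were selected for Ly6G from spleens of mice bearing a subcutaneous EL4 lymphoma, 3.5 weeks after the tumour cells were injected. Neutrophils were washed from the peritoneum of mice given 2 intraperitoneal injections of 1.5 ml of 12% casein, a milk protein that provokes inflammation, 16 h apart, and were collected 3 h after the last, depleted of F4/80-positive cells and selected for Ly6G. Cell kind, tissue, tumour, casein and the F4/80 step went together in every array and cannot be told apart. Separate mice per sample are not stated in the labels, and the p-values below therefore cover the spread among these arrays alone, part of which may be technical.

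A RAB protein switches between a GDP-bound form, held soluble by GDP dissociation inhibitors, and a GTP-bound form that sits on one kind of membrane through prenylated cysteines and recruits effectors there. Exchange factors turn RABs on, GTPase-activating proteins turn them off, and tethers and SNARE proteins then dock and fuse the vesicle. In granulocytes this machinery is known for granule release, phagosome maturation and receptor recycling. In neutrophils Rab27a, with its effector Munc13-4, is known for docking and release of granules.

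In the deposited data the median signal was 75.84 and 80.71 in the G-MDSC arrays and 83.31 and 177.9 in the neutrophil arrays, where signals are linear array intensities. Weak signals were raised in neutrophils replicate 2, whose 40th percentile was 132.7, while it was 45.7 and 52.6 in the G-MDSC arrays and 51.37 in neutrophils replicate 1. All 13 measured neutrophil markers were above the 40th percentile in at least 1 array of each group, among them S100a8 at 53180 and 61940 in the G-MDSC arrays and 58670 and 85890 in the neutrophil arrays. The sort antigen Ly6G was not analysed here, since its probe sets carry several symbols. Markers of other cells differed between the groups. Of 14 macrophage markers tested, 10 were lower and 1 was higher in G-MDSC, and the summed signal of the list was 20529 and 19358 in the G-MDSC arrays against 47150 and 69828 in the neutrophil arrays. Of 9 mast cell markers tested, 5 were lower and 0 higher by limma, and 2 had differences above 0. Cma1, Mcpt4, Tpsb2 and Tpsab1 were at or below the 40th percentile in both G-MDSC arrays. Kit went the other way, at 2003 and 3146 in the G-MDSC arrays against 1551 and 417 in the neutrophil arrays. Summed signals over 10 measured markers were 18855 and 22250 in the G-MDSC arrays against 41247 and 30832 in the neutrophil arrays. Hdc was the largest part of these sums, at 15260 and 18050 in the G-MDSC arrays against 24350 and 24020 in the neutrophil arrays. Of 8 B and plasma cell markers, 2 were higher and 1 lower, and their summed signals were 22382 and 16015 in the G-MDSC arrays against 7856 and 10461 in the neutrophil arrays. Jchain (8912 and 4232 in G-MDSC, against 310 and 215.4 in neutrophil arrays) and Igha (5802 and 3869 in G-MDSC, against 247 and 320.2 in neutrophil arrays) carried that difference. Of 5 platelet markers, 2 were lower and 0 higher by limma, with sums of 1274 and 1002 in the G-MDSC arrays against 6212 and 18571 in the neutrophil arrays. Those sums rested on Pf4 (100.1 and 70.03 in G-MDSC, against 4624 and 13470 in neutrophil arrays) and Ppbp (64.4 and 64.92 in G-MDSC, against 833.6 and 4414 in neutrophil arrays). Differences of the platelet markers were above 0 for 2 and below 0 for 3. Itga2b was among those above 0, at 556.9 and 645.5 in the G-MDSC arrays against 386.9 and 439.2 in the neutrophil arrays. Summed T and NK cell markers (633 and 318 in G-MDSC, 473 and 642 in neutrophils) and erythroid markers (510 and 588 in G-MDSC, 288 and 779 in neutrophils) overlapped between the groups. No listed marker had a signal of 0. In such samples of sorted cells, fewer cells of a type and less RNA per cell cannot be told apart.

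Of the 59 RAB genes, 50 had a chosen probe set that exceeded the 40th percentile on 2 or more of the 4 arrays, and these were tested with limma, a linear model with moderated variances, on log2(signal + 16). Differences are G-MDSC minus neutrophils on that scale, and folds are on it too, which understates changes of dim genes. Each SE is limma's moderated one, which leans on the variance of other genes of like intensity. It is therefore not the spread of that gene's own arrays alone. Adjusted p-values are Benjamini-Hochberg over all 13139 genes tested with a threshold of 0.05. By this test 6 RAB genes were higher in G-MDSC (Rab3d, Rab27a, Rab33b, Rab28, Rab24 and Rab40c) and 4 were lower (Rab20, Rab33a, Rab15 and Rab44), while 40 were not called. That is 12% higher and 8% lower, against 8.3% higher and 8.05% lower among all genes tested, so the counts lie near the background, for both directions together 20% against 16.4%. The median difference was 0.26 over the RAB genes and -0.18 over all genes, and 20 RAB genes lay within 0.5 of 0. The 2 medians were closer under other settings, at 0.32 and 0.03 with quantile normalization. With a filter at the 60th percentile they were 0.30 and 0.05. The groups' arrays did not overlap for 37 of 50 RAB genes, or 74%, against 59.5% of all genes. Of these, 24 were higher and 13 lower in G-MDSC, where 27.3% of all genes were separate and higher and 32.2% separate and lower.

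**Figure D1:**
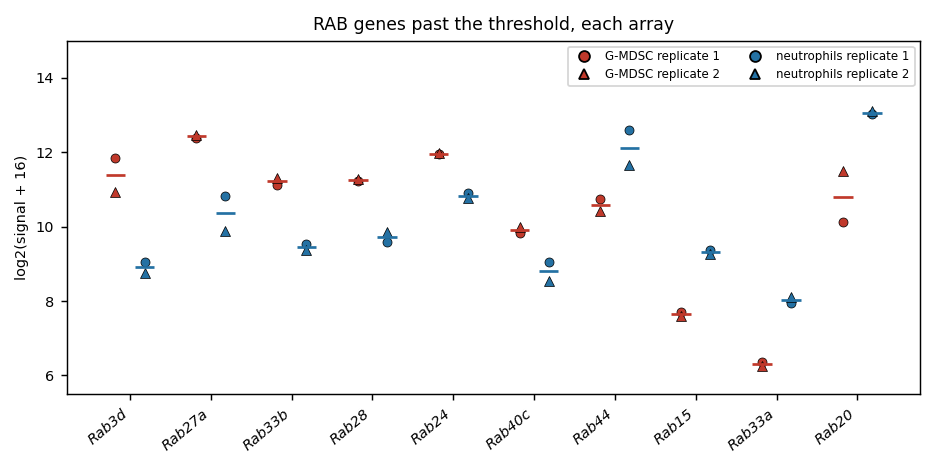
Signals of the 10 RAB genes past the threshold on each array, as log2(signal + 16) on the vertical axis, with G-MDSC (red) left of neutrophils (blue), circles for replicate 1, triangles for replicate 2 and a bar at the group mean of 2 arrays. For each gene both arrays of one group lie on the same side of both arrays of the other, with the largest gap within a group in Rab20, at 1098 and 2854 in G-MDSC.

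The calls depended on scaling, on the variance model and on single arrays. Median scaling, which moved the median of all genes from -0.18 to 0.31, gave 7 RAB genes higher and 0 lower, beside 7.88% and 3.62% of all genes, and quantile normalization, with a median of all genes of 0.03, gave 6 and 3, beside 6.86% and 6.8%. Limma without the intensity trend called 1 RAB gene, Rab3d, beside 1.13% of all genes higher and 2.52% lower. Without moderation it called 0 RAB genes and 0 of all genes, with 16 RAB genes at an unadjusted p under 0.05. The numbers also moved with the array left out. Without G-MDSC replicate 1 the numbers higher and lower were 3 and 2, beside 3.27% and 4.37% of all genes, and without G-MDSC replicate 2 they were 3 and 1, beside 3.89% and 4.27%. Without neutrophils replicate 1 they were 13 and 6, beside 18.4% and 26.4% of all genes, and without neutrophils replicate 2 they were 9 and 5, beside 13% and 11.1%. Rab3d, Rab27a and Rab33b were called higher, and Rab20 lower, in all 4 of these fits.

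The largest RAB differences in each direction belonged to Rab3d and Rab27a, both higher in G-MDSC, and to Rab20, lower in G-MDSC. Their promoters are shown because these 3 genes carry the largest differences. The sequences are the 250 bases before each annotated start from RefSeq (GRCm38.p6), printed 5′ to 3′ along the gene, with capitals marking CACGTG (the E-box read by TFEB, USF and MYC family factors) and GGGCGG (the GC box read by SP1) on either strand. Rab3d lies at chr9:21918184-21918433 on the minus strand, the first Rab27a start at chr9:73044560-73044809 on the plus strand, the second Rab27a start at chr9:73063898-73064147 on the plus strand, and Rab20 at chr8:11478641-11478890 on the minus strand.
Rab3d: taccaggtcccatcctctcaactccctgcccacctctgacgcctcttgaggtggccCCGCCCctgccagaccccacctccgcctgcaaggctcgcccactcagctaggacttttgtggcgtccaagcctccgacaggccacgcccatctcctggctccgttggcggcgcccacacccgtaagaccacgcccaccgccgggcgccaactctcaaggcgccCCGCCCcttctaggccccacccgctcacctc
Rab27a, first start: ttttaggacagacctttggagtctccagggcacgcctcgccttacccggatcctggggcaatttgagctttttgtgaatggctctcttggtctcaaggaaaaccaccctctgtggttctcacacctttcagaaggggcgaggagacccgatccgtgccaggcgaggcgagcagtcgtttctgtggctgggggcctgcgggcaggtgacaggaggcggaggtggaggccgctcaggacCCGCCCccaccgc
Rab27a, second start: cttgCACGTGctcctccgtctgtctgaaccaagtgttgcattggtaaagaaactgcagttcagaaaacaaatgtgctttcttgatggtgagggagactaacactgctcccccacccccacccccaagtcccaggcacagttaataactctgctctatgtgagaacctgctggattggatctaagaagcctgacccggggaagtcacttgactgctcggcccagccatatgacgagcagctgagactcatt
Rab20: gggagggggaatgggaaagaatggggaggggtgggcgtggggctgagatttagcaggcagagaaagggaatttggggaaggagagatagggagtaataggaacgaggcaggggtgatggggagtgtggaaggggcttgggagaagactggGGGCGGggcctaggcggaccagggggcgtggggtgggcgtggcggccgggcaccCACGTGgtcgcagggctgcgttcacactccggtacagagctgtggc

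Rab3d held 2 GC boxes and 0 E-boxes in this window, and Rab20 held 1 of each. The E-box of Rab27a was in the window of its second start, and its GC box in that of its first. Of 9 called RAB genes with a promoter entry, 7 held GGGCGG and 2 held CACGTG, against 36 and 5 of 48 RAB genes with an entry and 35.4% and 6.86% of 27025 genes. The motif GAGGAA, the core read by PU.1, was in 1 of the 9 (Rab33b), in 8 of 48 RAB genes and in 25.9% of genes. TGACGTCA, the cyclic AMP response element, was in 0 of the 9, in 2 of 48 and in 1.77% of genes. A match describes the letters in the window and does not show binding.

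The counts of each role group below stand beside 8.3% higher and 8.05% lower of all genes tested. The groups are too small to compare with those shares. RABs of regulated secretion, which dock and release granules, held the gene with the largest rise. Rab3d, known on secretory granules of exocrine and mast cells, had signals of 3671 and 1955 in the G-MDSC arrays, against 519 and 414 in the neutrophil arrays. Both G-MDSC arrays were above both neutrophil arrays, and Rab3d was 5.62-fold higher in G-MDSC (log2 difference 2.49 ± 0.37, SE, n = 2 per group; limma adjusted p = 0.00123). It kept this call under 15 of 16 alternatives, without moderation being the exception (adjusted p = 0.257). Rab27a, the granule-docking RAB mutated in Griscelli syndrome and in ashen mice, had signals of 5338 and 5649 in the G-MDSC arrays, against 1805 and 929.2 in the neutrophil arrays. The G-MDSC arrays were close together and the neutrophil arrays spread, and Rab27a was 4.20-fold higher in G-MDSC (log2 difference 2.07 ± 0.35, SE, n = 2 per group; limma adjusted p = 0.00278). Its call was lost with the mean of its 4 kept probe sets (1.14, adjusted p = 0.0652) and without the intensity trend (adjusted p = 0.0632).

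Unlike these, Rab44, a large atypical RAB with EF-hand calcium-binding motifs described in mouse mast cells and bone marrow, fell. Its signals were 1704 and 1362 in the G-MDSC arrays, against 6174 and 3221 in the neutrophil arrays, a log2 difference of -1.54 ± 0.36 (SE, n = 2 per group; limma adjusted p = 0.0137). The neutrophil arrays differed from each other but both lay above the G-MDSC arrays. Without G-MDSC replicate 2 the difference was -1.38 and missed the threshold (adjusted p = 0.0726), with median scaling it was -1.05 (adjusted p = 0.367), and without the trend the adjusted p was 0.11. The summed signals of the mast cell and macrophage lists, given above, were lower in the same G-MDSC arrays, and the part of these lists in the result was not tested.

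Rab37, found on mast cell granules, had signals of 356.1 and 397.8 in the G-MDSC arrays, against 144.7 and 154.5 in the neutrophil arrays. These groups were separate, but the log2 difference of 1.25 ± 0.39 (SE, n = 2 per group) just missed the threshold (limma adjusted p = 0.0532). It passed with 6 of 16 alternatives, including quantile normalization (1.64, adjusted p = 0.0475) and median scaling (1.73, adjusted p = 0.00998). It did not pass with no filter (adjusted p = 0.146) or with the mean of its kept probe sets (0.81, adjusted p = 0.189). The difference was 1.20 without neutrophils replicate 1, 1.29 without neutrophils replicate 2, 1.32 without G-MDSC replicate 1 and 1.17 without G-MDSC replicate 2. The other probe set of Rab37 had overlapping arrays, at 213.6 and 174.3 in the G-MDSC arrays and 117.2 and 176.6 in the neutrophil arrays (0.38). Rab3a, the synaptic vesicle RAB, had signals of 537.9 and 282.2 in the G-MDSC arrays, against 249.1 and 148.6 in the neutrophil arrays (0.96 ± 0.45; limma adjusted p = 0.176), and passed without neutrophils replicate 1 (adjusted p = 0.00439). Rab27b, the close paralog of Rab27a known in platelet dense granules, had signals of 70.76 and 75.95 in the G-MDSC arrays, against 125.7 and 166.1 in the neutrophil arrays. Its difference of -0.85 ± 0.59 did not pass (limma adjusted p = 0.374), whereas Rab27a did in the other direction, and the contrast between the paralogs was not tested. The chosen probe sets of Rab3a, Rab27b and Rab38 (suffix x) and of Rab14 and Rab4a (suffix s) are of kinds that can also match other transcripts. Those of Rab3d, Rab15, Rab11a, Rab12, Rab17, Rab18, Rab23, Rab30 and Rab4b have the suffix a, which marks several transcripts of a gene, and without all 3 kinds Rab3d was still called, from another probe set, and Rab15 could not be tested. Rab3b, Rab3c and Rab26 were too dim to test, at up to 83.59 in any array.

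Some neutrophil markers moved with the groups too. Of 13 tested, which include the granule genes Mpo, Elane, Ltf and Camp, 6 were higher in G-MDSC and 0 lower by limma. Differences were above 0 for 9 of them and below 0 for 4. S100a9 was one of the 4, at 44930 and 54090 in the G-MDSC arrays against 55660 and 81110 in the neutrophil arrays. Among those above 0, Camp was at 30460 and 30840 in the G-MDSC arrays against 1277 and 600.4 in the neutrophil arrays. Ltf was at 30450 and 29700 against 2483 and 822.1, in the same order. Mpo was at 8580 and 3980 against 149.6 and 156.5, and Elane at 5017 and 1993 against 127.2 and 82.61. Summed signals of the 13 markers were 326445 and 377929 in the G-MDSC arrays against 227811 and 271923 in the neutrophil arrays. The part of these markers in the Rab3d and Rab27a results was not tested.

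**Figure D2:**
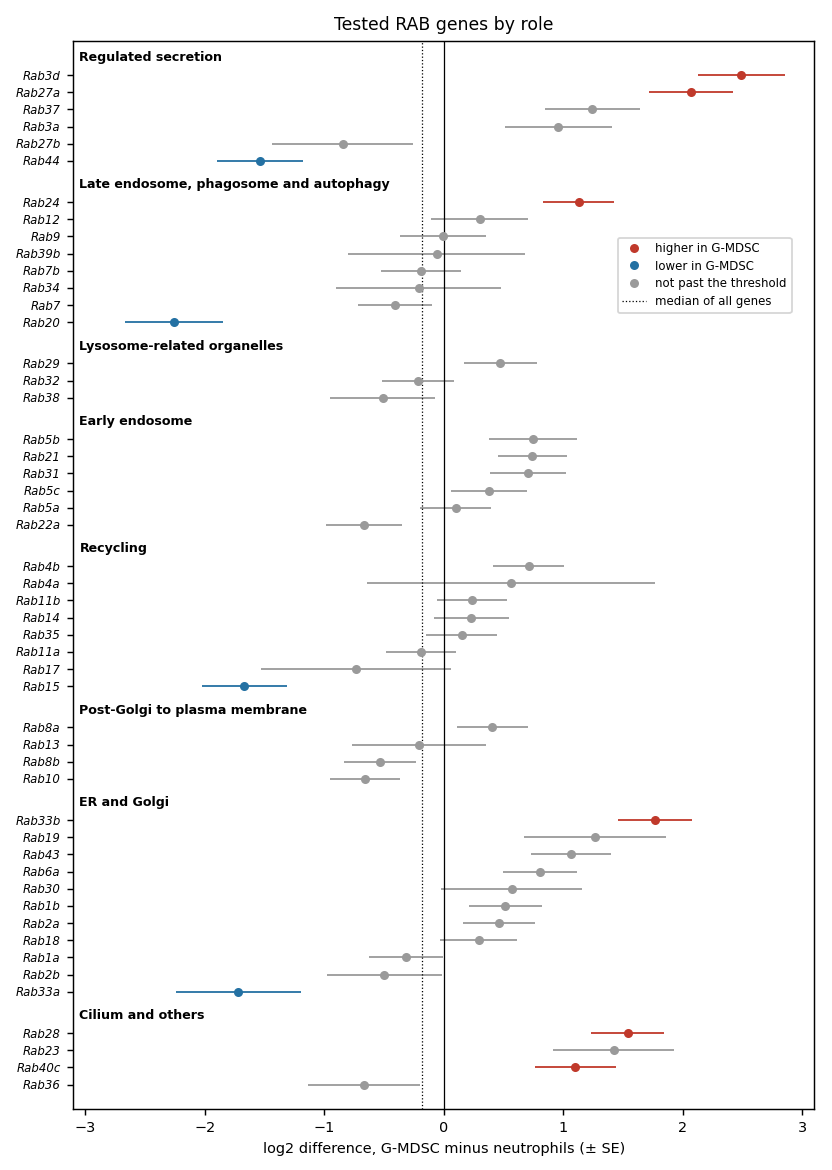
Log2 difference, G-MDSC minus neutrophils, for the 50 tested RAB genes, grouped by membrane role and coloured by limma's call. Bars are 1 moderated SE from limma (n = 2 per group). The dotted line marks the median of all genes at -0.18, and the secretion group spans -1.54 to 2.49.

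Among 8 tested RABs of late endosomes, phagosomes and autophagy, 1 rose and 1 fell, and the core late endosomal genes were not called. Rab20, a phagosome RAB known to be raised by hypoxia and interferon gamma, had signals of 1098 and 2854 in the G-MDSC arrays, against 8288 and 8832 in the neutrophil arrays. All neutrophil values were above all G-MDSC values, and the gene was 4.79-fold higher in neutrophils (log2 difference -2.26 ± 0.41, SE, n = 2 per group; limma adjusted p = 0.00383). The size rested on the spread within G-MDSC, at -1.58 without G-MDSC replicate 1 and -2.94 without G-MDSC replicate 2, and both of those fits called it. With median scaling (-1.77, adjusted p = 0.0958) and without the trend (adjusted p = 0.0763) the call was lost. Macrophage markers were lower in the same G-MDSC arrays, with the sums given above, and their part in this fall was not tested.

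Rab24, an atypical RAB with low GTPase activity that acts in autophagy, had signals of 3919 and 4040 in the G-MDSC arrays, against 1907 and 1721 in the neutrophil arrays. Replicates were close in both groups, and Rab24 was 2.19-fold higher in G-MDSC (log2 difference 1.13 ± 0.29, SE, n = 2 per group; limma adjusted p = 0.0231). This call was lost without G-MDSC replicate 1 (1.15, adjusted p = 0.18), without G-MDSC replicate 2 (1.11, adjusted p = 0.214), with median scaling (1.62, adjusted p = 0.124) and without the trend (adjusted p = 0.113).

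Rab7, which drives fusion of late endosomes with lysosomes, had signals of 10560 and 12960 in the G-MDSC arrays, against 17680 and 13670 in the neutrophil arrays. Although the arrays were separate, the difference of -0.41 ± 0.31 did not pass (limma adjusted p = 0.409), and it was 0.08 with median scaling. Rab7b, which returns cargo from late endosomes to the Golgi, had signals of 496.9 and 439.1 in the G-MDSC arrays, against 569.9 and 502.1 in the neutrophil arrays (-0.19 ± 0.33, or 0.30 with median scaling; limma adjusted p = 0.736). Rab34, known for lysosome positioning, had 62.29 and 114.6 in the G-MDSC arrays and 62.56 and 158 in the neutrophil arrays (-0.21 ± 0.69; limma adjusted p = 0.864), with overlapping arrays and a sign that turned under 4 alternatives. Rab9, which retrieves mannose 6-phosphate receptors to the Golgi, was at 2302 and 3862 in the G-MDSC arrays and 2350 and 3809 in the neutrophil arrays (-0.01 ± 0.36). In both groups replicate 2 was the higher of the pair. Rab12 (0.30 ± 0.40) and Rab39b (-0.06 ± 0.74) were not called either, and Rab39b was at or below the 40th percentile in both neutrophil arrays. Rab9b, Rab39 and Rab42 were too dim to test.

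The RABs of lysosome-related organelles, which in pigment cells build melanosomes, were not called. Rab32 had signals of 4093 and 5505 in the G-MDSC arrays, against 5302 and 5731 in the neutrophil arrays (-0.21 ± 0.30, or 0.27 with median scaling; limma adjusted p = 0.671). Its paralog Rab38 had 304.2 and 381.8 in the G-MDSC arrays, against 311 and 775.8 in the neutrophil arrays (-0.51 ± 0.44; limma adjusted p = 0.471). The value in neutrophils replicate 2 set that difference, which was 0.13 without that array and -1.15 without neutrophils replicate 1, where it passed (adjusted p = 0.00554). Rab29, the partner of the kinase LRRK2, was at 1276 in both G-MDSC arrays, against 882.8 and 944.9 in neutrophils (0.48 ± 0.31), which did not pass (limma adjusted p = 0.333).

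No RAB of the early endosome passed among 6 tested, and their differences ran from -0.67 to 0.75. Rab5a, the master RAB of endosome fusion, had signals of 6957 and 8397 in the G-MDSC arrays, against 6820 and 7457 in the neutrophil arrays (0.10 ± 0.30, or -0.04 without G-MDSC replicate 2; limma adjusted p = 0.846), and the arrays overlapped. Rab5b (0.75 ± 0.36) and Rab5c (0.38 ± 0.32), its paralogs, were not called either. Rab31, which carries cargo between the Golgi and endosomes, had 8181 and 6947 in the G-MDSC arrays, against 5596 and 3812 in the neutrophil arrays. Its groups were separate (0.70 ± 0.32; limma adjusted p = 0.163), and the difference was 0.98 without neutrophils replicate 1. The other probe set of Rab31 went the other way, at 187.6 and 183.8 in the G-MDSC arrays and 239.5 and 238.4 in the neutrophil arrays (-0.34). The mean of its kept probe sets gave 0.18 (limma adjusted p = 0.701). Rab21, which moves integrins, was at 0.74 ± 0.29 and Rab22a, which recycles receptors, at -0.67 ± 0.32.

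In the recycling group 1 of 8 tested genes was called, and it fell. Rab15, a regulator of endocytic recycling, had signals of 191.5 and 179.1 in the G-MDSC arrays, against 644.5 and 603.2 in the neutrophil arrays. Replicates nearly coincided, and Rab15 was 3.18-fold higher in neutrophils (log2 difference -1.67 ± 0.36, SE, n = 2 per group; limma adjusted p = 0.00896). Without G-MDSC replicate 1 (-1.71, adjusted p = 0.0844) or G-MDSC replicate 2 (-1.62, adjusted p = 0.0954) the call was lost, as it was with median scaling (-1.18, adjusted p = 0.0966) and without the trend (adjusted p = 0.0566). Rab11a, the RAB of slow recycling, had 8063 and 8621 in the G-MDSC arrays, against 8937 and 10090 in the neutrophil arrays (-0.19 ± 0.29, or 0.30 with median scaling; limma adjusted p = 0.702). Rab14, of the Golgi and endosomes, had 5497 and 4864 in the G-MDSC arrays, against 5282 and 3667 in the neutrophil arrays (0.23 ± 0.31, or -0.03 without neutrophils replicate 2; limma adjusted p = 0.654). Rab4b, of fast recycling, was at 0.71 ± 0.30, Rab11b at 0.24 ± 0.29 and Rab35 at 0.15 ± 0.30. Rab4a, the other fast-recycling RAB, was at 0.56 ± 1.20. Of the epithelial genes, Rab17 was at -0.73 ± 0.79 and Rab25, at up to 9.42 in any array, was too dim to test.

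Of 11 RABs of the endoplasmic reticulum and Golgi tested, 1 rose and 1 fell, and these were paralogs. Rab33b, a Golgi RAB that binds the autophagy protein Atg16l1, had signals of 2228 and 2543 in the G-MDSC arrays, against 727 and 649.5 in the neutrophil arrays. It was 3.41-fold higher in G-MDSC (log2 difference 1.77 ± 0.31, SE, n = 2 per group; limma adjusted p = 0.00294) and kept its call when any 1 array was left out, while without the trend the adjusted p was 0.0548. Rab33a, known from axon growth, had 65.94 and 60.48 in the G-MDSC arrays, against 231.3 and 258.4 in the neutrophil arrays. The groups were separate, with Rab33a 3.29-fold higher in neutrophils (log2 difference -1.72 ± 0.52, SE, n = 2 per group; limma adjusted p = 0.0455). Its call was lost with no filter (adjusted p = 0.126), without G-MDSC replicate 1 (-1.77, adjusted p = 0.322) or replicate 2 (-1.67, adjusted p = 0.331), with quantile normalization (-1.22, adjusted p = 0.103), with median scaling (-1.23, adjusted p = 0.0851), with robust moderation (adjusted p = 0.0533) and without the trend (adjusted p = 0.0553).

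The general secretory RABs of that group were not called. Rab1a, which moves cargo from the endoplasmic reticulum to the Golgi, had signals of 15250 and 17980 in the G-MDSC arrays, against 18270 and 23250 in the neutrophil arrays (-0.32 ± 0.31), and its paralog Rab1b was at 0.52 ± 0.30. Rab2a was at 0.46 ± 0.30, Rab2b at -0.50 ± 0.48, Rab6a, of retrograde Golgi traffic, at 0.81 ± 0.31, and Rab43, also of the Golgi, at 1.07 ± 0.33, just short of the threshold (limma adjusted p = 0.0509). Rab43 passed under 5 of the 16 alternatives, among them the fits without neutrophils replicate 1 and without neutrophils replicate 2. Rab18 of lipid droplets was at 0.29 ± 0.32, Rab19 at 1.26 ± 0.60 and Rab30 at 0.57 ± 0.59. Rab19 passed with median scaling and Rab6a with the replicate block. Rab6b is counted as not tested because its chosen probe set, at 30.57 and 51.22 in the G-MDSC arrays and 17.23 and 154.7 in the neutrophil arrays, did not pass the filter. Another probe set of Rab6b did pass, at 54.38 and 60.86 in the G-MDSC arrays and 11 and 78.7 in the neutrophil arrays, and was not called (0.54 ± 1.07; limma adjusted p = 0.765). Among RABs that carry vesicles from the Golgi to the plasma membrane, 0 of 4 tested were called by limma, with 1, Rab10, at an unadjusted p under 0.05. Rab10 (-0.66 ± 0.29), Rab8b (-0.54 ± 0.30) and Rab13 (-0.21 ± 0.56) were below 0 and Rab8a (0.41 ± 0.30) above it.

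Of 4 tested genes with roles in cilia or other processes, 2 rose, a small group beside the 8.3% higher of all genes. Rab28, mutated in cone-rod dystrophy and known in cilia, had signals of 2400 and 2457 in the G-MDSC arrays, against 749.6 and 905.3 in the neutrophil arrays. Replicates were close, and Rab28 was 2.91-fold higher in G-MDSC (log2 difference 1.54 ± 0.31, SE, n = 2 per group; limma adjusted p = 0.00614). It missed the threshold narrowly without G-MDSC replicate 1 (1.56, adjusted p = 0.0511), without G-MDSC replicate 2 (1.52, adjusted p = 0.0565) and without the trend (adjusted p = 0.069). Rab40c, which joins a ubiquitin ligase through a SOCS box, had 899.3 and 993.5 in the G-MDSC arrays, against 517.9 and 359.3 in the neutrophil arrays. Its log2 difference of 1.10 ± 0.34 (SE, n = 2 per group) was the called one nearest the threshold (limma adjusted p = 0.0478). The call was lost under 9 of 16 alternatives, among them no filter (adjusted p = 0.0644), quantile normalization (1.15, adjusted p = 0.0845), median scaling (1.59, adjusted p = 0.0693), and the fits without G-MDSC replicate 1 (1.17, adjusted p = 0.292), G-MDSC replicate 2 (1.03, adjusted p = 0.384) or neutrophils replicate 2 (0.85, adjusted p = 0.0512). Rab23, a regulator of hedgehog signalling, had 736.9 and 595.4 in the G-MDSC arrays, against 122.6 and 444.6 in the neutrophil arrays, and did not pass (1.43 ± 0.51; limma adjusted p = 0.0807), though it passed with median scaling, with the replicate block and without neutrophils replicate 2. Rab36 was at -0.67 ± 0.47, and Rab40b was too dim to test.

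**Figure D3:**
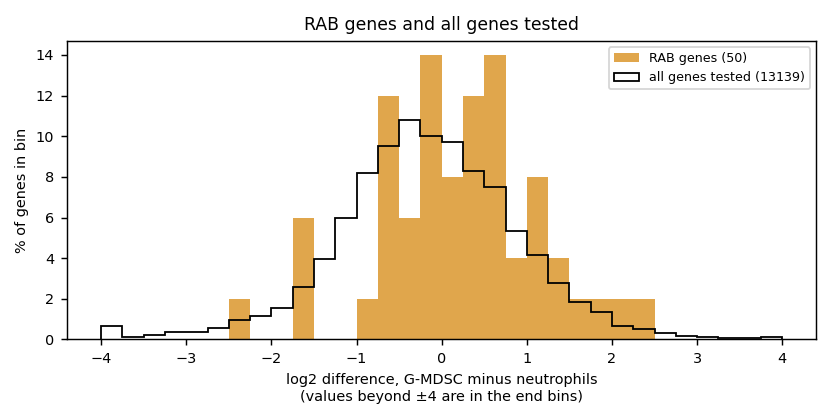
Share of genes in bins of log2 difference, G-MDSC minus neutrophils, for 50 tested RAB genes (filled) and 13139 genes (outline). The medians are 0.26 for the RAB genes and -0.18 for all genes, and both spread over both directions.

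Probe sets of one gene could be set against each other for 26 RAB genes with several above the filter. For 15 of them all these probe sets had the same sign, and for 11 they did not. All 4 probe sets of Rab3d had differences above 0, from 0.62 to 2.49, and in the lowest of them the arrays overlapped, at 154.7 and 150.1 in the G-MDSC arrays and 51.28 and 161.9 in the neutrophil arrays. Of the 4 of Rab27a, 3 were at 1.58 to 2.07 and 1, with signals of 41.65 and 56.5 in the G-MDSC arrays and 69.51 and 140.3 in the neutrophil arrays, was at -0.84. Both probe sets of Rab28 (1.54 and 1.39) and of Rab24 (1.13 and 1.36) agreed in sign. The other probe set of Rab40c was at -0.13 and above the 40th percentile in 1 array. Rab33b, Rab20, Rab15, Rab33a and Rab44 each had 1 probe set, so no such check exists for them. Among genes not called, the 7 probe sets of Rab14 ran from -1.03 to 1.05, and both of Rab7 were below 0 (-0.41 and -0.94).

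**Figure D4:**
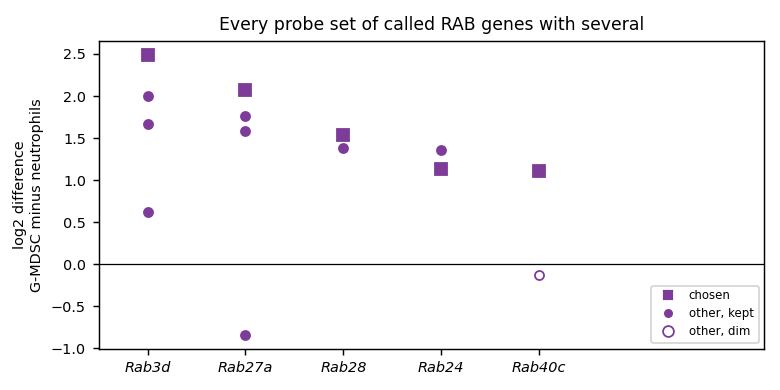
Log2 difference, G-MDSC minus neutrophils, of every probe set of the called RAB genes that have several, with squares for the chosen probe set, filled circles for others above the filter and open circles for dim ones. The probe sets of Rab3d lie between 0.62 and 2.49, and 1 of Rab27a lies below 0.

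The proteins that regulate RABs or act with them were read from lists of 165 genes, of which 148 were tested. Of these, 22, or 14.9%, were higher and 5, or 3.38%, were lower in G-MDSC, against 8.3% and 8.05% of all genes, with a median difference of 0.22 against -0.18. With median scaling 20 were higher and 1 lower, beside 7.88% and 3.62% of all genes. Without the trend 2 were higher and 1 lower, beside 1.13% and 2.52% of all genes. Both numbers moved with the array left out, and so did the shares of all genes called. The counts of each list below stand beside the same 8.3% higher and 8.05% lower of all genes.

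Of 31 exchange factors, 3 rose and 0 fell. Rin3, which activates Rab5 and Rab31, had signals of 4225 and 4001 in the G-MDSC arrays, against 1810 and 756.2 in the neutrophil arrays (1.80 ± 0.39; limma adjusted p = 0.0103). Mon1a, of the complex that activates Rab7, was higher by 1.32 ± 0.35, and missed the threshold when G-MDSC replicate 1 (1.22, adjusted p = 0.268) or G-MDSC replicate 2 (1.42, adjusted p = 0.143) was left out. Rabif, also called Mss4, which stabilises exocytic RABs, was higher by 1.35 ± 0.32 through a probe set that can match several transcripts, and was at -0.16 without such probe sets.

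Among 31 GTPase-activating proteins, 5 rose and 1 fell. Tbc1d10c, also called carabin and known as an inhibitor of calcineurin, had signals of 3632 and 4239 in the G-MDSC arrays, against 733.9 and 378.9 in the neutrophil arrays (2.86 ± 0.36; limma adjusted p = 0.000503). Tbc1d14, of recycling endosomes and autophagy, was higher by 1.84 ± 0.36, and Tbc1d15, which acts on Rab7, by 1.68 ± 0.30. Tbc1d4, which restrains Rab10 in glucose transporter traffic, had 132.9 and 103.5 in the G-MDSC arrays, against 731.5 and 772.7 in the neutrophil arrays (-2.53 ± 0.37; limma adjusted p = 0.00124). With the mean of its kept probe sets Tbc1d4 was at -1.31 and not called (adjusted p = 0.122).

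In the prenylation and recycling list of 7 tested genes, Rabac1, a receptor for prenylated RABs, was higher by 1.22 ± 0.33 and Rabggtb, the beta subunit of the enzyme that prenylates RABs, differed by -1.29 ± 0.34. Rabggtb had signals of 348.2 and 301.6 in the G-MDSC arrays, against 703.9 and 939.8 in the neutrophil arrays (limma adjusted p = 0.0257), and its call was lost without G-MDSC replicate 1 (-1.38, adjusted p = 0.16) or replicate 2 (-1.19, adjusted p = 0.256), with quantile normalization (adjusted p = 0.0505) and with median scaling (-0.80, adjusted p = 0.32). The Rabac1 call was lost without G-MDSC replicate 2 (0.92, adjusted p = 0.346). The alpha subunit Rabggta (0.64 ± 0.37), the RAB escort proteins Chm (0.36 ± 0.30) and Chml (-0.80 ± 0.48), and the GDP dissociation inhibitor Gdi2 (0.13 ± 0.30, or -0.05 without neutrophils replicate 1) were not called.

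Of 40 effectors, 9 rose and 2 fell. Unc13d, which encodes Munc13-4, the granule-release partner of Rab27a, had signals of 2419 and 1667 in the G-MDSC arrays, against 653.1 and 703.5 in the neutrophil arrays. Both groups were separate, and Unc13d was higher by 1.54 ± 0.32 (SE, n = 2 per group; limma adjusted p = 0.00827), but at 1.28 when G-MDSC replicate 1 was left out, where the call was lost (adjusted p = 0.166). Gcc2, a Golgi tether, was higher by 2.01 ± 0.36, Mical1, an actin-oxidising enzyme, by 1.78 ± 0.39, and Pik3c3, the lipid kinase Vps34 of early endosomes and autophagy, by 1.69 ± 0.33, the last not called without G-MDSC replicate 2 (1.53, adjusted p = 0.125). Rilpl2 (-1.10 ± 0.32) and Rabep1, the Rab5 effector rabaptin-5 (-1.13 ± 0.35), were lower, the second with an adjusted p of 0.0489 that was lost under several alternatives, such as the mean of its kept probe sets (-0.82, adjusted p = 0.229). Rilpl2 was not called when G-MDSC replicate 1 (-0.80, adjusted p = 0.493) or G-MDSC replicate 2 (-1.39, adjusted p = 0.0756) was left out, or with median scaling (-0.61, adjusted p = 0.513).

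Tethers and SNAREs gave a mixed picture. Of 8 exocyst subunits, which tether vesicles at the plasma membrane, 3 rose and 0 fell, with Exoc6 higher by 1.50 ± 0.33, Exoc1 by 1.33 ± 0.40 and Exoc8 by 1.18 ± 0.35. None of these 3 was called when either G-MDSC array was left out, with adjusted p from 0.064 (Exoc1 without G-MDSC replicate 2) to 0.553 (Exoc8 without G-MDSC replicate 1). Exoc1 was at 0.27 with the mean of its kept probe sets (adjusted p = 0.645), and was also lost with no filter, quantile normalization, median scaling and without neutrophils replicate 2 (0.81, adjusted p = 0.0574). Exoc8 was lost with no filter and with quantile normalization. Of 10 genes listed with the HOPS and CORVET tethers of endosomes, not all of them subunits of these 2, 1 rose, Vps18 (1.26 ± 0.32), and 0 fell. Vps18 lost its call without G-MDSC replicate 1 (1.15, adjusted p = 0.279) or G-MDSC replicate 2 (1.36, adjusted p = 0.143). Of 21 genes listed with SNAREs and SM proteins, among them Napa and Nsf, which are neither, 0 rose and 1 fell by limma. At an unadjusted p under 0.05, 2 were above and 4 below 0. The 1 that fell was Stx3, a plasma membrane SNARE, with signals of 359.3 and 394.3 in the G-MDSC arrays, against 1496 and 1334 in the neutrophil arrays (-1.86 ± 0.32; limma adjusted p = 0.00277). The Stx3 call was lost with the mean of its kept probe sets (-1.15, adjusted p = 0.0867), with median scaling (-1.38, adjusted p = 0.122) and without the trend (adjusted p = 0.051).

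**Figure D5:**
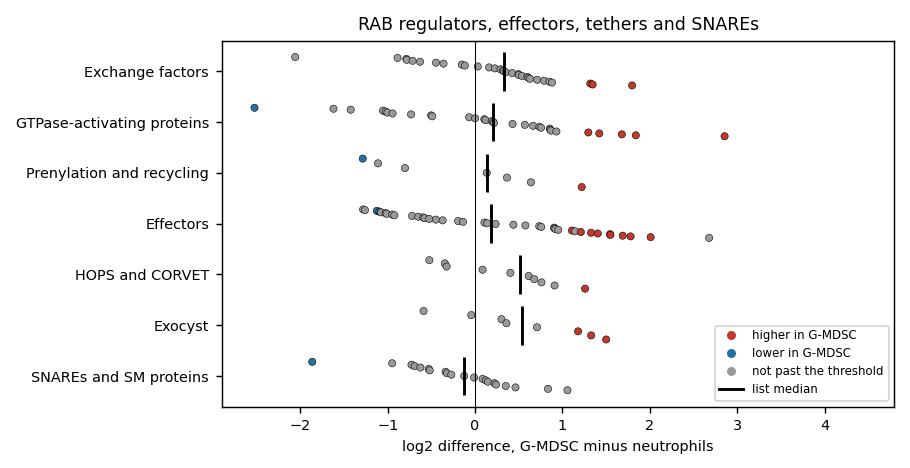
Log2 difference, G-MDSC minus neutrophils, of 148 tested genes of the RAB machinery, 1 point per gene in each of 7 lists, with a bar at the list median and colour for limma's call. Called genes lie on both sides of 0, with 22 higher and 5 lower in G-MDSC.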

How the data were processed

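Gene expression was measured on 4 arrays, 2 of G-MDSC and 2 of neutrophils. The authors' deposited values are linear intensities, for which the submitters' processing notes name GCOS 1.4 and MAS5, and their 2% trimmed mean is 500 in each array. The number of arrays limits the precision. Probe sets were named from the platform annotation, and those with several symbols were left out. Signals were used as log2(signal + 16). Probe sets above the 40th percentile of their array in at least 2 of 4 arrays were kept (23403 with 1 symbol), and in the fit a gene was read from whichever of these had the highest mean log2 signal. The RAB genes were read from their brightest probe set of all, which was the same one except for Rab6b. limma 3.58.1 in R 4.3.3 (lmFit, eBayes with an intensity trend) gave two-sided p-values, adjusted by Benjamini-Hochberg over 13139 genes. With 2 arrays per group the smallest exact permutation p is 0.33, and that test was left out. The members, role groups, related lists and markers were chosen with earlier results of these data known. Full values are given for every called RAB gene and for a fixed set with roles in leukocyte granules and phagosomes, and for related lists up to 3 called genes per direction and a fixed set. On simulated data for 13139 genes with 200 changed, the share recovered was 7.46% for 2-fold, 61.2% for 4-fold and 74.2% for 8-fold changes, and 4 unchanged genes were called. The Benjamini-Hochberg cutoff depends on the share of changed genes, and 2149 genes were called in the data. These shares and the count of unchanged genes called therefore need not hold there. Python 3.11.15 with pandas 2.3.3 and matplotlib 3.10.9 read the promoters and drew the figures. Alternatives were other pseudocounts, filters, normalizations, variance models and probe sets, the replicate block, and leaving out each array. Protein sequences were not used here.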

Additional observations from a re-analysis of the deposited data

How the results depend on the processing

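The counts of RAB genes higher and lower in G-MDSC, 6 and 4, were the same with pseudocounts of 1 and 64. They were 5 and 3 of 59 with no filter, beside 5.08% and 4.61% of all genes. With a stricter filter (60th percentile) they were 8 and 4 of 43, beside 12.1% and 11.5% of all genes. With median scaling (median of RAB genes 0.75) they were 7 and 0, beside 7.88% and 3.62%. Without the trend they were 1 and 0, beside 1.13% and 2.52%, and with the replicate block 10 and 4, beside 12.9% and 12.2%. Without moderation they were 0 and 0, as over all genes. Leaving out 1 array gave 3 to 13 higher and 1 to 6 lower, with 1003 to 5891 genes called over all genes, 8 to 50 related genes higher and 2 to 23 lower. Over all genes, 2149 were called, 479 without the trend, 3306 with the replicate block and 0 without moderation. The related genes, 22 higher and 5 lower, were 2 and 1 without the trend and 0 and 0 without moderation. The number lower was 3 with no filter, 8 with the stricter filter, 1 with median scaling and 11 with the block. Leaving out probe sets that can match several transcripts was an alternative chosen after seeing the data, like the fit without moderation. That alternative gave 5 of 42 tested RAB genes higher and 2 lower, beside 7.21% and 6.39% of all genes, and 14 and 2 related genes. Rab15 has no other probe set and was not tested there.

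Signs turned for genes that were not called, other than Rabif (-0.16 without probe sets of several transcripts). With median scaling Rab11a was at 0.30, Rab32 at 0.27, Rab34 at 0.28, Rab7 at 0.0783 and Rab7b at 0.30. Rab34 was at 0.38 with quantile normalization. Over the fits that leave out 1 array, Rab34 ran from -0.78 to 0.36 (0.16 without G-MDSC replicate 1), Rab38 from -1.15 to 0.13, Rab14 from -0.0306 to 0.49, Rab5a from -0.0355 to 0.24 and Gdi2 from -0.0515 to 0.32. The causes were not tested. The labels do not say that replicate numbers pair samples. Replicate 1 minus replicate 2 in G-MDSC correlated with that in neutrophils across genes (0.24), which with 2 pairs does not settle a pairing. With 1 array left out, the lone array of a group is assumed to vary like the others. Dim signals kept the chosen probe sets of 9 RAB genes out of the test (another probe set of Rab6b was tested), and neutrophils replicate 2 had the highest low end.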

Other observations

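Genes with RAB-like names that the rule leaves out were measured on the same arrays. Rabl6, a RAB-like GTPase, had signals of 342.3 and 285 in the G-MDSC arrays, against 554 and 742.7 in the neutrophil arrays, and its log2 difference of -1.002 ± 0.35 (SE, n = 2 per group) missed limma's threshold (adjusted p = 0.0773). Rab5if, an interacting factor named after Rab5, had 13990 and 14650 in the G-MDSC arrays, against 9355 and 10030 in the neutrophil arrays (0.56 ± 0.29; limma adjusted p = 0.229). Rabl2 (0.69 ± 0.59), Rabl3 (0.15 ± 0.33) and Rabepk (-0.01 ± 0.44) were not called either.

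The tested RAB genes with the widest errors were the dim ones. Rab4a was at 62.78 and 35.22 in G-MDSC and at 63.15 and 7.398 in neutrophils, with a difference of 0.56 ± 1.20.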
